A study of Mus musculus with 24 samples.

Results

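Olfactory receptor genes that give RNA in the mouse cortex were followed here. They were selected on their level: a gene named Olfr and a number was kept if its FPKM, summed over its transcripts, was 0.5 or more in at least 3 of the 12 libraries, and this left 92 of 1117 such genes. FPKM is the authors' count per kilobase of transcript, scaled to the depth of the library. Another 344 of the 1117 genes had some counts below that level and 681 had 0 counts in every library. The medial frontal cortex was taken at postnatal day 28 from C57BL/6J mice of 4 groups with 3 samples each. Dnmt3l males and Dnmt3l females came from a cross of Emx1-cre mice to a line with a conditional knock-in of Dnmt3l, and control males and control females carried Emx1-cre without the knock-in, so that the Cre transgene was common to all 4 groups. Emx1-cre acts in cells of the dorsal forebrain lineage, which are excitatory neurons and glia of the cortex, while the libraries were made from whole tissue. In bulk tissue, fewer cells of a type and less RNA per cell cannot be told apart. Libraries are written DM and DF (Dnmt3l males and females) and CM and CF (control males and females) with the replicate number.

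Olfactory receptors are G protein-coupled receptors with a single coding exon. In the nose each sensory neuron uses a single allele of a single receptor gene and keeps the others silent in heterochromatin, and the receptor signals through the G protein alpha subunit Golf, adenylyl cyclase 3 and a cyclic nucleotide-gated channel. The genes lie in tandem clusters on most mouse chromosomes, and the members of the cluster on chromosome 7 near the beta-globin genes are the class I receptors, which resemble those of fish. Transcripts of single receptors have been described in many tissues outside the nose, the brain among them. Dnmt3l, the knock-in gene, encodes a partner of the de novo DNA methyltransferases without catalytic activity of its own.

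The sequences below show the 300 bases around the annotated RefSeq start of 4 members whose RNA was called higher in Dnmt3l cortex, as given below. Each holds 250 bases before the start and 50 after it (GRCm38.p6, written 5′ to 3′ on the gene's strand). Capitals mark each CG dinucleotide, the site at which the methyltransferases act.
Olfr1385, chr11:49494285-49494584, plus strand: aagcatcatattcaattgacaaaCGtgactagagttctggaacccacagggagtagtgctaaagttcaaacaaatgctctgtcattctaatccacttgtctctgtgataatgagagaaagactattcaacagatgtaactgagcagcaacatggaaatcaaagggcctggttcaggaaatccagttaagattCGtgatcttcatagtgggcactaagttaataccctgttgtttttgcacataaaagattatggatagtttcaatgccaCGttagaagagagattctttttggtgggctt
Olfr986, chr9:40186829-40187128, plus strand: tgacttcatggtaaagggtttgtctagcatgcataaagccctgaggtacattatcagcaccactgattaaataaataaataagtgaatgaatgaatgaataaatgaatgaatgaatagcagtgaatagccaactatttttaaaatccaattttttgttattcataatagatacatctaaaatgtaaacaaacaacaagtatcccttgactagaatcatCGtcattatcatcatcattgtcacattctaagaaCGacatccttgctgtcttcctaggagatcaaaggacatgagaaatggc
Olfr552, chr7:102604106-102604405, plus strand: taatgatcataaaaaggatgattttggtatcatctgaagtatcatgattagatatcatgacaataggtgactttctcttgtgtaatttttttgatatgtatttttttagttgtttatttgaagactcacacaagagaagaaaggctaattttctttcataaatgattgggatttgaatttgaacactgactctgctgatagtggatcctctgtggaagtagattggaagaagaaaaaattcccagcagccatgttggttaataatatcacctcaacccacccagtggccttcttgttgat
Olfr46, chr7:140601090-140601389, plus strand: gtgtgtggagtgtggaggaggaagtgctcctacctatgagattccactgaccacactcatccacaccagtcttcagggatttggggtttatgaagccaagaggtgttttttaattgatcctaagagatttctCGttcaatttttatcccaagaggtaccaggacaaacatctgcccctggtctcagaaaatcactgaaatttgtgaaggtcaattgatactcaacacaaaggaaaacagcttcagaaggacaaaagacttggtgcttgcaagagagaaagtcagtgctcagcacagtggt
These 4 windows held 3, 2, 0 and 1 CG dinucleotides. Over the 78 members with an entry in the RefSeq table, the median was 1 CG, the range was 0 to 6, and 25.6% had none. The 866 windows of the other receptor genes also had a median of 1, with none in 34.1%, while the 31903 windows of all other genes had a median of 8, with none in 4.6%. The median was 1 both for members whose RNA was called higher in Dnmt3l cortex and for those not called. The motif CCCNNGGG, the core bound by Olf1/EBF factors, was searched on both strands and occurred in 3.85% of members, 3.0% of other receptor genes and 14.0% of all other windows. The homeodomain core TAATTA, also searched on both strands, occurred in 17.9% of members, 18.7% of other receptor genes and 4.9% of all other windows. The letters of the 2 motifs cannot overlap, and a match describes letters only. For 4 of the 78 members the RefSeq start lay within 100 bases of the 5′ end of the gene as deposited, Olfr46 among them, at 71 bases. The RefSeq start of Olfr1385 lay inside the deposited gene, 5465 bases from that end. Most of these windows are therefore not at the 5′ end of the deposited gene. Their place relative to the start of the transcript that was counted was not examined.

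The libraries held 22144970 to 26842726 counts in the Dnmt3l groups and 27074837 to 32100277 in the controls. Dnmt3l itself was at 13.7 to 32.6 FPKM in the 6 Dnmt3l libraries and at 0 to 0.07 FPKM in the controls. The control libraries CM3, CF1 and CF2 also held transcripts of liver, such as albumin (Alb, 0.02 to 0.25 FPKM in Dnmt3l libraries and 0.02 to 26.8 FPKM in controls). The labels do not say whether the 3 samples of a group came from separate animals, so a p-value here reflects the spread among the libraries, which may be technical.

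The RNA of the receptor genes was concentrated in a few of them. Of the 92 genes, 23 had a mean above 10 FPKM, 45 lay between 1 and 10 and 24 were below 1. Their median was 3.37 FPKM, against 9.44 FPKM for the 15686 other genes tested. In all, 71 genes reached 0.5 FPKM in each of the 12 libraries, 10 reached it in fewer than 3 libraries of one genotype, and 1 of those, Olfr398, reached it in Dnmt3l libraries only. The 5 genes with most counts held 37.9% to 42.3% of all counts of the 92 in a library. The 92 genes together took 0.402% to 0.557% of the counts in Dnmt3l libraries and 0.328% to 0.399% in controls. The lowest Dnmt3l share was in DF1 and the highest control share in CF1. These 92 genes held 1351023 counts over the 12 libraries, against 15441 for the other 1025 receptor genes. Just inside the threshold, the third-highest FPKM was 0.51 for Olfr554, 0.52 for Olfr1209 and 0.52 for Olfr600. Just outside it were Olfr1175 at 0.47, Olfr906 at 0.46 and Olfr859 at 0.44.

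The members were spread over the genome and lay in most of the large receptor clusters. They occurred on 15 of the 17 chromosomes with receptor genes and in 27 of 63 clusters, with a gap of 1 Mb or more between clusters. Chromosome 2 had 27 members of 288 receptor genes and chromosome 7 had 20 of 240. Chromosomes 3 and 6 had none. The cluster at chr2:85330779-90403897 (GRCm38) had 18 members of 224 genes, and that at chr7:102476579-105369355, which holds the class I receptors, had 13 of 127. The cluster at chr9:37708964-40190134 had 9 of 97. In each of these 3 the members were 8.0% to 10.2% of the receptor genes, close to the 8.2% over the genome. Other large clusters varied more. That at chr19:11826803-13921866 had 1 of 63 (1.6%) and that at chr7:106675005-108894420 had 3 of 66 (4.5%). The cluster at chr2:36285023-37332772 had 5 of 27 (18.5%), and that at chr6:41768770-43236959 had 0 of 21. Other chemoreceptor families passed the same threshold at similar shares: 29 of 350 Vmn1r genes (8.3%) and 33 of 240 Vmn2r genes (13.8%), which are vomeronasal pheromone receptors, against 0 of 16 trace amine receptor (Taar) and 0 of 43 taste receptor (Tas) genes. Of all genes without an Olfr name, 45.2% passed.

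The counts sat on long transcript models and not on the coding-length ones. In 81 of the 90 members with several Ensembl transcripts, the shortest model had 0 counts in all libraries, and the median length of the shortest model was 954 bases. In 81 of the 92 members 1 transcript held at least 95% of the counts, and the transcript with most counts had a median length of 4123 bases (316 to 15582). By the length of the longest model, 56 of the 294 receptor genes with more than 4000 bases were members, against 33 of 508 with 2000 to 4000 bases, 3 of 241 with 1000 to 2000 bases and 0 of 74 below that. This was read from the same counts that chose the members and is a description. Expected counts are estimates that share out reads matching several transcripts or genes, so they need not be whole. In 67 of the 92 members (72.8%) the gene's count was whole, within 0.005, in none of the 12 libraries, against 9.8% of the other genes tested. In 6 members, Olfr316, Olfr464, Olfr554, Olfr690, Olfr691 and Olfr1033, it was whole in all 12, against 28.3% of the other genes. Levels of the 67 are therefore uncertain where near-identical copies share their reads, and FPKM divides by the long model.

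**Figure D1:**
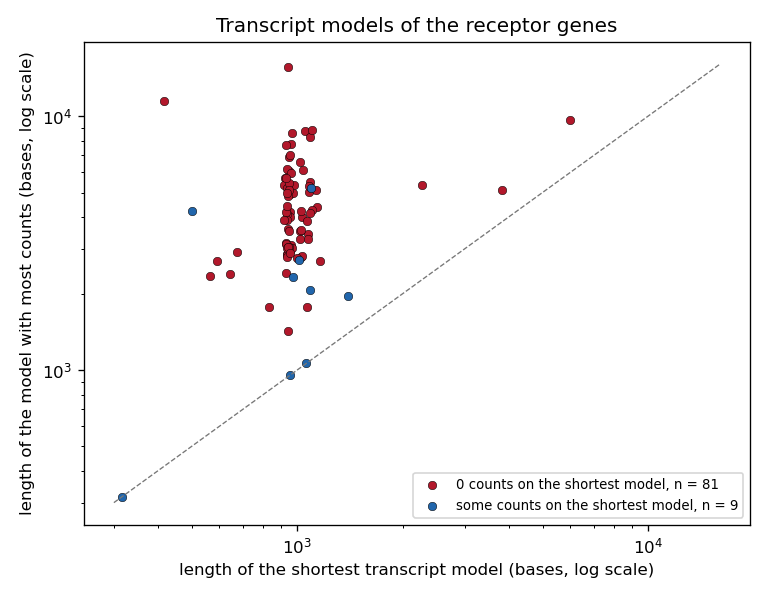
Length in bases of the transcript model with most counts (vertical, log scale) against the length of the shortest model (horizontal, log scale) for the 90 receptor genes with more than 1 model, with equality as the dashed line. The 81 red points are genes with 0 counts on the shortest model, and most of them lie well above the line.

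The next question was whether the receptor RNAs differed between Dnmt3l and control cortex. Averaged over both sexes, 60 of the 92 receptor genes rose in Dnmt3l cortex and 0 fell (edgeR quasi-likelihood test, adjusted p below 0.05). Over all 15786 genes tested, 25.2% were called higher and 26.4% lower. The median log2 change of the 92 was 0.45, against 0.02 for all genes tested, and 89 of the 92 changes were above 0. All 23 members above 10 FPKM were called higher, with changes of 0.33 to 0.89 on the log2 scale. Of the 45 members between 1 and 10 FPKM, 32 were called higher (median log2 change 0.44), and of the 24 below 1 FPKM 5 were (median 0.50). Members that passed the level threshold through one genotype alone had to differ, so the 71 genes that passed it in every library are given too: 57 of them were called higher and 0 lower. At an unadjusted p below 0.05 edgeR had 68 members higher and 0 lower, and DESeq2, which called 64 higher and 0 lower, had 1 lower at that level, Olfr316. The 6 Dnmt3l libraries all lay above the 6 controls in CPM (counts scaled to library size with TMM factors) for 17 members (18.5%) and all below for 0, against 5.47% and 6.83% of the genes tested. With limma on log2 FPKM the count was 33 higher and 0 lower. Over all 15786 genes tested, DESeq2 called 4253 higher and 4254 lower, and limma with 0.1 added to the FPKM called 2329 and 4282. With edgeR without CM3, CF1 and CF2, 45 members were higher and 0 lower, against 1920 and 2439 of all 15786 genes.

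**Figure D2:**
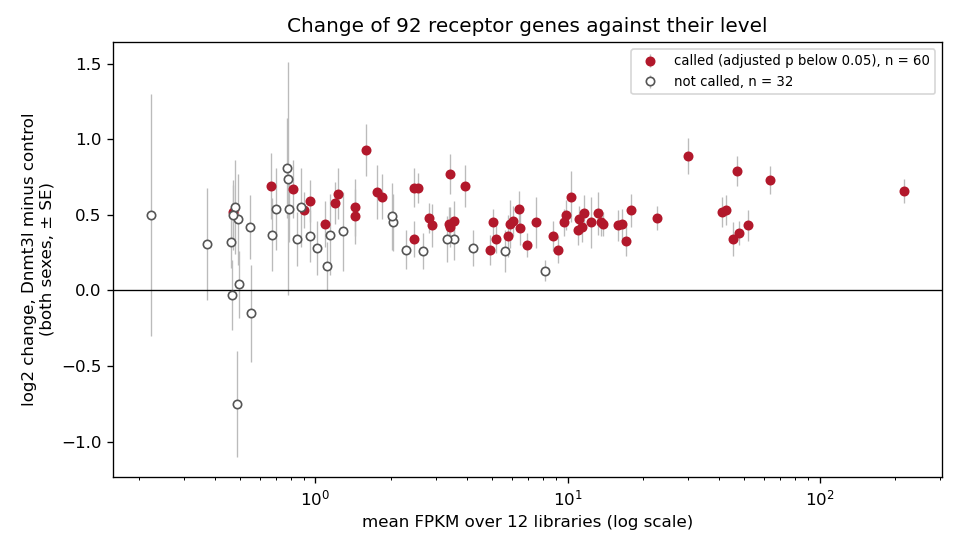
Log2 change of each of the 92 receptor genes (Dnmt3l minus control, averaged over sexes, with SE bars) against its mean FPKM over 12 libraries (log scale). Filled points are the 60 genes called higher and open points the 32 not called, and the 23 genes above 10 FPKM all lie between 0.33 and 0.89.

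Olfr1385, on chromosome 11 (49489070 to 49497496), had the highest level of all. It had 296, 285 and 287 FPKM in Dnmt3l males and 196, 261 and 234 FPKM in Dnmt3l females, against 181, 170 and 168 FPKM in control males and 191, 161 and 173 FPKM in control females. All 6 Dnmt3l libraries were above all 6 controls, DF1 by a small margin over CF1. The change was 0.66 ± 0.08 on the log2 scale (SE, edgeR adjusted p = 0.000158). A single model of 3155 bases carried its counts, while the shortest model has 930 bases.

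Olfr986, on chromosome 9 (40180920 to 40190134), had 79.9, 80.5 and 89.5 FPKM in Dnmt3l males and 59.6, 85.6 and 70.8 FPKM in Dnmt3l females, against 50.6, 52.2 and 48.2 FPKM in control males and 55.9, 43.9 and 47.9 FPKM in control females. Again the genotypes did not overlap. The log2 change was 0.73 ± 0.09 (edgeR adjusted p = 0.000206).

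Olfr552, on chromosome 7 (102597770 to 102608125) in the class I cluster, had 60.3, 56.9 and 65.6 FPKM in Dnmt3l males and 43.8, 68.1 and 53.3 FPKM in Dnmt3l females, against 34.8, 38.4 and 36.1 FPKM in control males and 35.8, 31.0 and 38.6 FPKM in control females. The lowest Dnmt3l library was DF1, and it was still above every control. The change was 0.79 ± 0.10 on the log2 scale (edgeR adjusted p = 0.000188).

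The other 5 of the 8 genes with the highest level rose too, with overlap between the genotypes. Olfr639 (chromosome 7) changed by 0.43 ± 0.10, Olfr1247 (chromosome 2) by 0.38 ± 0.08 and Olfr1250 (chromosome 2) by 0.34 ± 0.11 on the log2 scale, with edgeR adjusted p = 0.00269, 0.00216 and 0.0227. Olfr784 (chromosome 10) changed by 0.53 ± 0.10 and Olfr90 (chromosome 17) by 0.52 ± 0.10 (edgeR adjusted p = 0.00088 and 0.00115). Olfr1250 ranged over 41.7 to 66.7 FPKM in the Dnmt3l libraries and 35.9 to 47.3 FPKM in the controls, and its call was lost in 8 of 23 alternative analyses (adjusted p up to 0.325).

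**Figure D3:**
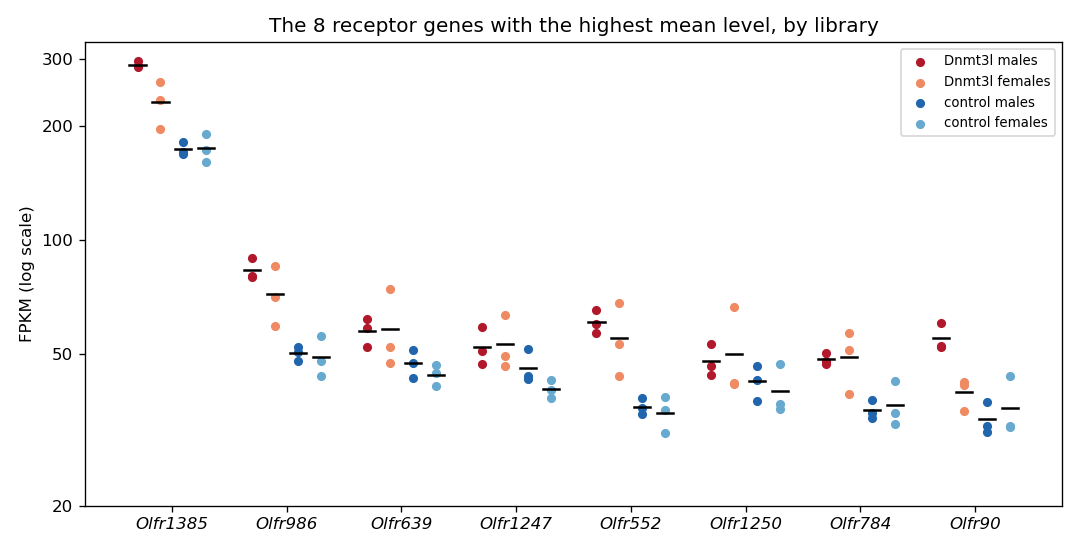
FPKM (log scale) of the 8 receptor genes with the highest mean level in each library, with Dnmt3l males and females left of control males and females and a bar at each group mean (n = 3 each). The 6 Dnmt3l points of Olfr1385, Olfr986 and Olfr552 lie above the 6 control points, and the other 5 genes overlap.

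The members with the largest called changes differed widely in level. Olfr1388 (chromosome 11, 49436624 to 49446103), a neighbour of Olfr1385 in the same cluster, had 2.02, 2.15 and 1.63 FPKM in Dnmt3l males and 1.40, 2.48 and 2.48 FPKM in Dnmt3l females, against 1.16, 1.58 and 1.37 FPKM in control males and 0.97, 1.02 and 0.85 FPKM in control females. Within females the genotypes were apart, and over both sexes DF1 and CM2 overlapped. Its log2 change was 0.93 ± 0.17 (edgeR adjusted p = 0.000825), and its counts were whole in 10 of the 12 libraries.

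Olfr46 (chromosome 7, 140601269 to 140617678) had 36.1, 39.2 and 41.7 FPKM in Dnmt3l males and 26.2, 44.9 and 40.3 FPKM in Dnmt3l females, against 22.5, 18.5 and 20.5 FPKM in control males and 26.2, 22.7 and 21.0 FPKM in control females. DF1 and CF1 were level with each other and the remaining Dnmt3l libraries were well above the controls. Its log2 change was 0.89 ± 0.12 (edgeR adjusted p = 0.00028). Olfr45, in the same cluster, rose by 0.68 ± 0.10 (edgeR adjusted p = 0.000391).

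On chromosome 9, Olfr975 rose by 0.77 ± 0.13, Olfr905 by 0.67 ± 0.19 and Olfr853 by 0.69 ± 0.22 in log2 units (edgeR adjusted p = 0.000512, 0.0101 and 0.0191). Olfr31 and Olfr731 on chromosome 14 rose by 0.69 ± 0.14 and 0.65 ± 0.18, and Olfr1260 on chromosome 2 by 0.68 ± 0.13 (edgeR adjusted p = 0.00169, 0.0098 and 0.000977). The chromosome 2 cluster of 18 members had 11 called higher (median log2 change 0.43), and the class I cluster of 13 had 6 (median 0.39). The chromosome 9 cluster of 9 had 6 (median 0.55), and a cluster of 7 on chromosome 10 had 6 (median 0.46). Of all genes tested, 25.2% were called higher.

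The 3 members with a change below 0 were Olfr316 at −0.75 ± 0.35, Olfr78 at −0.15 ± 0.32 and Olfr1209 at −0.03 ± 0.23 on the log2 scale, none of them called (edgeR adjusted p = 0.0866, 0.711 and 0.92). Olfr316 was listed at 0.26, 0.25 and 0.12 FPKM in Dnmt3l males and 0.45, 0.77 and 0.13 FPKM in Dnmt3l females, against 0.59, 0.36 and 0.57 FPKM in control males and 0.78, 1.04 and 0.51 FPKM in control females. Without DM1 it was called lower (log2 change −1.04, edgeR adjusted p = 0.0305). It was singled out after its values were seen, as the lowest change of the 92.

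The sexes were also tested apart. In males 50 of the 92 members were called higher and 0 lower (all genes tested: 20.4% higher, 22.7% lower), with a median log2 change of 0.59. In females 17 were called higher and 0 lower (all genes: 4.73% higher, 4.38% lower), with a median of 0.35. Members called in both sexes numbered 15. The difference between the sexes was itself tested: 0 of the 92 members and 0.0% of all genes were called for the male effect minus the female effect by edgeR, and 0 members by DESeq2 and limma. At an unadjusted p below 0.05 edgeR had 13 members and 1120 of all genes. The female count was unstable when any 1 library of either sex was left out. It was 43 without DF1, 0 without DF2, without DF3, without CF2 or without CF3, and 1 to 5 without a male library. Without CF1 it was 2, and it was 29 by DESeq2 and 1 by limma. The male count was 27 without CM2 or without CM3, 29 without DM1, 25 without CM3, CF1 and CF2 together, and 22 by limma.

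**Figure D4:**
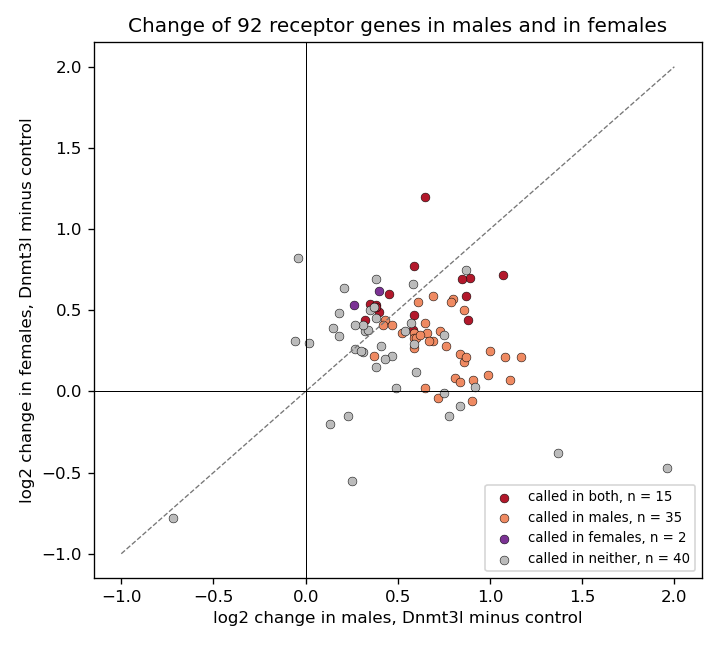
Log2 change (Dnmt3l minus control) of the 92 receptor genes in males (horizontal) and in females (vertical), with equality as the dashed line. Colours show the 15 genes called in both sexes, 35 in males only, 2 in females only and 40 in neither, and most points lie right of and above 0.

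Olfr77 (chromosome 9) was one of the 35 genes called in males and not in females. It had 1.28, 1.22 and 1.26 FPKM in Dnmt3l males and 0.80, 0.87 and 1.20 FPKM in Dnmt3l females, against 0.74, 0.55 and 0.64 FPKM in control males and 1.14, 0.95 and 0.73 FPKM in control females. Males did not overlap between genotypes and females did. The log2 change was 1.11 ± 0.20 in males and 0.07 ± 0.20 in females, and their difference of 1.03 ± 0.28 was not called (edgeR adjusted p = 0.679). Olfr904, Olfr318, Olfr1238, Olfr890 and Olfr1322 were likewise called in males, with log2 changes of 0.87 to 1.00, and ranged from −0.06 to 0.25 in females without a call. The male calls of Olfr77 and Olfr904 held in all 22 alternative analyses, while those of Olfr318, Olfr1238, Olfr890 and Olfr1322 were lost in 9 of 22, 7 of 22, 7 of 21 and 7 of 22.

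The level of the 92 genes moved as a group from library to library. The median difference of the 92 from the mean of the 6 controls, in log2 CPM with 0.1 added, was 0.56, 0.53 and 0.55 in Dnmt3l males and 0.17, 0.56 and 0.37 in Dnmt3l females, against 0.06, −0.08 and −0.02 in control males and 0.27, −0.12 and −0.14 in control females. DF1 was the lowest Dnmt3l library and lay below CF1, so the female groups overlapped. The same median over all genes tested was within 0.01 of 0 in every library. DF1 was also the library with most Dnmt3l RNA, at 32.6 FPKM.

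**Figure D5:**
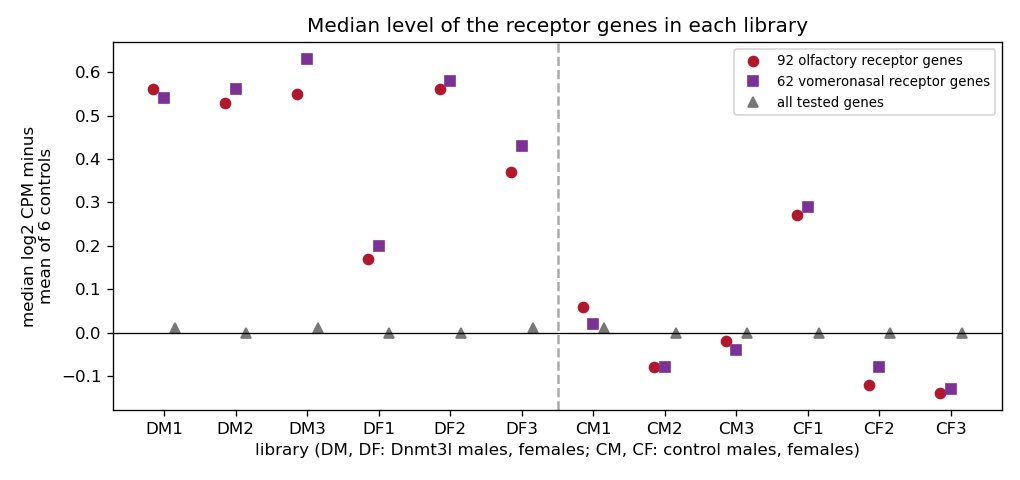
Median difference from the mean of the 6 controls (log2 CPM) in each library for the 92 olfactory receptor genes, the 62 vomeronasal receptor genes tested and all genes tested, with Dnmt3l libraries left of the dashed line. Both receptor families lie near 0.5 in 4 Dnmt3l libraries and lower in DF1 and DF3, and CF1 stands above the other controls.

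Vomeronasal receptor genes rose as well. Among those tested, 23 of 29 Vmn1r genes were called higher and 0 lower (median log2 change 0.47). Of 33 Vmn2r genes 22 were called higher and 1 lower (median 0.53), against 25.2% and 26.4% of all genes tested. Their medians by library were 0.54, 0.56 and 0.63 in Dnmt3l males and 0.20, 0.58 and 0.43 in Dnmt3l females, against 0.02, −0.08 and −0.04 in control males and 0.29, −0.08 and −0.13 in control females. Of 7 olfactory receptor pseudogenes tested, 3 were called higher and 0 lower, a description of few genes.

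Calls are given here by the kind of count behind them. Of the 67 members with no whole count, 49 were called higher (73.1%, median log2 change 0.45). Of the 19 with whole counts in 1 to 11 libraries, 11 were (median 0.38). Of the 6 members with whole counts in all 12 libraries 0 were called in either direction, with changes of −0.75 to 0.81, a median of 0.52 and 1 at an unadjusted p below 0.05 by edgeR. Those 6 also had fewer counts, with a median total of 290 against 4775 for the 67. Among the other genes tested, 34.6% of the 1530 with no whole count were called higher and 19.4% lower (median 0.13), and 19.4% of the 4439 with whole counts throughout were called higher and 26.4% lower. The part of shared reads in the rise of the receptor genes was not tested.

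Receptors with a known role outside the nose were mostly near or below the threshold. Of a list of 12 such receptors, Olfr73, Olfr78, Olfr90 and Olfr691 were members, and Olfr17, Olfr544 and Olfr151 had 0 counts. Olfr78, known as a sensor in the mouse carotid body and as a short-chain fatty acid receptor of kidney and vessels, had 0.52, 0.84 and 0.37 FPKM in Dnmt3l males and 0.69, 0.16 and 0.19 FPKM in Dnmt3l females, against 0.74, 0.58 and 0.74 FPKM in control males and 0.80, 0.64 and 0.42 FPKM in control females. Its genotypes overlapped in both sexes. Olfr73, the eugenol receptor, lay between 0.73 and 1.33 FPKM in Dnmt3l libraries and between 0.76 and 1.12 FPKM in controls (log2 change 0.28 ± 0.18, edgeR adjusted p = 0.204). Olfr691 lay between 0.47 and 0.96 FPKM in Dnmt3l libraries and between 0.28 and 1.03 FPKM in controls (log2 change 0.54 ± 0.27, edgeR adjusted p = 0.114). Olfr90, at 41.2 FPKM on average, was the exception in level, and its counts were whole in none of the 12 libraries. Olfr558, a receptor of vessels in the mouse, stayed below the threshold with at most 0.39 FPKM.

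Most receptor genes lay far from other expressed genes. A tested gene of another kind overlapped 0 of the 92 members, 28 had one within 100 kb and 7 within 20 kb, and the median distance to the nearest was 176 kb. Of the 28 neighbours within 100 kb, 10 were called higher and 6 lower (median log2 change 0.07), against 25.2% and 26.4% of all genes tested, and nothing particular to the neighbours is read from these counts. Members with such a neighbour were called higher in 12 of 28 cases (median 0.49), and members without one in 48 of 64 (median 0.44). In 11 of the 28 cases the receptor had the higher FPKM. Without the 3 control libraries with liver transcripts 7 of the neighbours were called in place of 16. Calls over all 15786 genes fell too, from 3976 higher and 4160 lower to 1920 and 2439.

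Single pairs show how receptor and neighbour compare. Olfr986 lies 2.18 kb from Zfp202, a zinc finger gene on the same strand that averaged 1.34 ± 0.265 FPKM in Dnmt3l libraries and 1.41 ± 0.231 FPKM in controls (SD, n = 6 each). Its log2 change was 0.07 ± 0.15 (edgeR adjusted p = 0.709), while Olfr986 had far higher levels and rose. Olfr90 lies 8.80 kb from Gabbr1, a GABA-B receptor subunit on the other strand with 325 ± 36.4 FPKM in Dnmt3l libraries and 260 ± 9.37 FPKM in controls, and both genes rose (Gabbr1 log2 change 0.36 ± 0.06, edgeR adjusted p = 0.000701). Olfr31 lies 14.5 kb from Il3ra, a cytokine receptor subunit, which had a log2 change of 0.77 ± 0.30 (edgeR adjusted p = 0.0463) and lost its call in 14 of 23 alternative analyses (adjusted p up to 0.145). Trim21, a ubiquitin ligase 32.3 kb from Olfr552, changed by 0.07 ± 0.18, and Zfp317, 81.0 kb from Olfr853, by −0.01 ± 0.12 (edgeR adjusted p = 0.76 and 0.944). Olfr45 has as its nearest expressed gene Cyp2e1, an enzyme abundant in liver, at 0.01 ± 0.0155 FPKM in Dnmt3l libraries and 1.27 ± 1.38 FPKM in controls. That value comes from the control libraries with liver transcripts.

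Genes that work with the receptors in the nose included some called in each direction, as did all genes tested (25.2% higher and 26.4% lower). Of 17 tested genes for receptor signalling, 4 were called higher and 8 lower (median log2 change −0.13). Adcy3, the adenylyl cyclase of olfactory cilia, rose by 0.41 ± 0.08, and Gnal, which encodes Golf, fell by 0.49 on the log2 scale (SE 0.13, edgeR adjusted p = 0.000925 and 0.00666). Slc24a4, an ion exchanger of olfactory neurons, rose by 0.55 ± 0.11, and Rgs2, a regulator of G protein signalling, fell by 1.03 (SE 0.16, edgeR adjusted p = 0.00121 and 0.000391). Of 8 tested genes for receptor export, 2 were called higher and 1 lower (median 0.21), a description of few genes, with Hspa5, a chaperone, at 0.59 ± 0.14 and Reep2 at 0.40 ± 0.08 (edgeR adjusted p = 0.00362 and 0.0011). Rtp1 and Rtp2, which carry receptors to the membrane in the nose, were below the test's threshold, at 0.10 to 0.45 FPKM in Dnmt3l libraries and 0.09 to 0.44 FPKM in controls for Rtp1.

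Of 26 tested genes for receptor gene choice and silencing, 7 were called higher and 5 lower (median log2 change 0.01), shares near the 25.2% and 26.4% of all genes tested, so the genes named here describe single genes and not the list. Ebf4, an Olf1/EBF factor, had 6.22 ± 0.985 FPKM in Dnmt3l libraries and 3.56 ± 0.449 FPKM in controls (SD, n = 6 each) and rose by 0.89 ± 0.12 on the log2 scale, and the homeodomain factor Emx2 rose by 0.57 ± 0.12 (edgeR adjusted p = 0.000273 and 0.00159). The heterochromatin protein genes Cbx3 and Cbx5 fell by 0.55 and 0.35 (SE 0.10 and 0.08), and Ctcf, which encodes a looping factor, fell by 0.49 (SE 0.10; edgeR adjusted p = 0.000896, 0.00255 and 0.00129). Kdm1a, the histone demethylase that acts in receptor choice, fell by 0.30 (SE 0.07, edgeR adjusted p = 0.0047). Lhx2, a homeodomain factor of the receptor enhancers, had a change of 0.11 ± 0.07 (edgeR adjusted p = 0.215). Among silencing genes, Lbr rose by 0.32 ± 0.11 and Setdb1 by 0.22 ± 0.07 (edgeR adjusted p = 0.0244 and 0.0191). Ehmt1 and Dnmt3a rose by 0.18 and 0.26 (SE 0.07 and 0.09, edgeR adjusted p = 0.041 and 0.0276). Eif2ak3 rose by 0.30 and Trim66 fell by 0.42 (SE 0.08 and 0.11, edgeR adjusted p = 0.00591 and 0.00697).

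Markers of olfactory sensory neurons ranged widely in level. Omp, the olfactory marker protein, lay between 0.54 and 1.29 FPKM in Dnmt3l libraries and between 0.47 and 1.07 FPKM in controls, and its change was 0.29 ± 0.27 on the log2 scale (edgeR adjusted p = 0.379). Of 15 listed markers 9 were tested, and Adcy3 and Kirrel2 were called higher and Gnal lower. Kirrel2, an adhesion molecule of olfactory axons, had 4.33 to 20.07 FPKM in Dnmt3l libraries and 4.18 to 8.40 FPKM in controls, with overlap between the genotypes and a log2 change of 1.04 ± 0.16 (edgeR adjusted p = 0.000382). The summed FPKM of the list was 207 to 296 in Dnmt3l libraries and 261 to 337 in controls, most of it Gng13 and Gnal, which the cortex also expresses. None of the 15 was at 0 in all libraries. Of 10 testis and sperm markers 6 had 0 counts in every library, Prm1, Prm2, Tnp1, Tnp2, Akap4 and Pgk2, and the summed FPKM was 0.39 to 0.99 in Dnmt3l libraries and 0.35 to 1.00 in controls. Of 5 vomeronasal neuron markers 4 were tested, 3 higher and 1 lower, with Vmn2r1, itself a receptor, rising by 0.51 ± 0.09 (edgeR adjusted p = 0.000567). Trpc2, the channel of vomeronasal neurons, lay at 0 to 0.63 FPKM in Dnmt3l libraries and 0 to 0.40 FPKM in controls. Of 12 olfactory bulb markers 7 were tested, 3 higher and 3 lower, with a summed FPKM of 68.8 to 83.0 in Dnmt3l libraries and 79.6 to 105 in controls. Over all genes tested 25.2% were called higher and 26.4% lower, and these short lists are a description.

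Most markers of vessels and glia were called higher too, while over all genes tested 25.2% were called higher and 26.4% lower. All 10 endothelial markers were called higher (median log2 change 0.86, summed FPKM 169 to 327 in Dnmt3l libraries and 141 to 162 in controls). Of 11 microglia and macrophage markers 10 were called higher (median 0.72, 270 to 524 in Dnmt3l libraries and 241 to 286 in controls), and of 10 astrocyte markers 9 were called higher and 1 lower (median 0.63, 1290 to 2070 in Dnmt3l libraries and 1240 to 1300 in controls). Of 11 smooth muscle and pericyte markers 7 were called higher and 0 lower (median 0.41). Their summed FPKM overlapped, with 58.0 to 128 in Dnmt3l libraries and 61.4 to 79.9 in controls. Of 10 oligodendrocyte lineage markers 6 were called higher and 1 lower (median 0.50). Their sums overlapped too, with 1660 to 5240 in Dnmt3l libraries and 1720 to 3330 in controls. Excitatory neuron markers had 2 called higher and 4 lower of 10 (median −0.33). Their summed FPKM was nonetheless higher, with 1660 to 2000 in Dnmt3l libraries and 1380 to 1610 in controls. The 2 genes called higher, Camk2a and Slc17a7, had the highest levels of that list. Interneuron markers had 4 called higher and 5 lower of 10 (median −0.03), and ependymal markers 1 and 3 of 7 (median −0.22). The sums of these last lists overlapped between the genotypes. No marker of these lists was at 0 in all libraries. The part of a change in cell makeup in the rise of the receptor genes was not tested.

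Receptor names also occurred in the table of long non-coding RNAs, where 12 of 23698 assembled transcripts from 8 genes carried one. Olfr539, a member with 22.7 FPKM on average in the mRNA table, had 2 such transcripts with 72.1 and 38.9 counts in all. Olfr544, a receptor known from liver and fat tissue of the mouse, had 0 counts in the mRNA table and 1706 counts on a non-coding transcript of 3200 bases. Those 1706 counts gave 36.6, 44.6 and 33.9 FPKM in Dnmt3l males and 25.6, 12.7 and 37.9 FPKM in Dnmt3l females, against 28.6, 25.4 and 24.6 FPKM in control males and 32.6, 22.0 and 15.7 FPKM in control females. Males did not overlap between genotypes and females did, on the scale of that table, which is normalised to its own total. No test was made on it.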

How the data were processed

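Total RNA of whole medial frontal cortex was depleted of ribosomal RNA and sequenced with second strands marked by dUTP, per the labels' protocols. The submitters' processing notes name HISAT2 2.0.1, HTSeq 0.6.1, cutadapt 1.9.1, DESeq2 and the build GRCm38, with no role. How reads matching several genes were shared and whether counting used strand are not given in the sources used here. Per the file headers, the authors deposited an expected count and an FPKM per Ensembl transcript. The deposited FPKM of the long non-coding table is on that table's own total.

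Expected counts and FPKM were summed per gene (36096 genes). Transcripts without a gene ID, 0.533% to 0.601% of a library, were left out. Counts were rounded and tested with edgeR 4.0.16 (TMM, quasi-likelihood; R 4.3.3) over the 15786 genes that met the 0.5 FPKM threshold, with a mean for each of the 4 groups (8 residual degrees of freedom). Contrasts were Dnmt3l minus control over both sexes, in males, in females, and the male minus the female effect. Adjusted p-values are Benjamini-Hochberg over all genes tested, two-sided, called below 0.05. Errors of log2 changes are SE. Alternatives were DESeq2 1.42.0, limma 3.58.1 on log2(FPKM + 0.1) or 0.5, other scalings and filters, a replicate block and each library left out.

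In simulated counts of 15786 genes, 67, 67 and 66 genes were changed by 1.5, 2 and 4 times, up or down. Each gene was drawn independently. The contrast over both sexes recovered 61.2%, 86.6% and 87.9% of these changes, with 9 false calls of 166. In the real data 25.2% of genes were called higher and 26.4% lower, so these rates need not carry over. Named genes were the 8 members highest in FPKM, up to 12 called members a direction by size of change, up to 6 more called in a sex, the 3 just inside and 3 just outside the threshold, listed receptors known outside the nose, nearest expressed genes of these, and up to 3 called genes a direction from each list. Only some of the list genes are named in the text, and others, such as Cbx5, Kdm1a, Lhx2 and Omp, are named outside this rule. The members and lists were chosen with earlier results of these data known. Intervals are not given, since expected counts are estimates. Promoters are from RefSeq (GRCm38.p6), which had entries for 78 of the 92 members.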

Additional observations from a re-analysis of the deposited data

How the results depend on the processing

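For members called higher over both sexes, 60 with edgeR, the count was 33 with limma on log2(FPKM + 0.1) and 33 with 0.5 added. It ran from 48 (without CM3 or without CF2) to 69 (without CF1) when 1 library was left out. Of the 60, 44 were called in each of the 12 such fits. Members called lower numbered 0 to 1 there. In males, 50 with edgeR became 22 and 23 with limma on log2(FPKM + 0.1) and log2(FPKM + 0.5), 25 without the 3 control libraries with liver transcripts, and 27 (without CM2 or without CM3) to 57 (without DF1) with 1 library left out, 29 of them without DM1. In females, 17 with edgeR became 29 with DESeq2, 1 with limma at either pseudocount, 0 without the 3 libraries with liver transcripts, and 0 to 43 with 1 library left out. Leaving out a male library gave 1 to 5 of these female calls. The replicate block gave 61 members higher over both sexes, 46 in males and 10 in females. Same-numbered samples did not deviate together over all genes tested (correlation −0.33 to 0.088, 0 of 18 over 0.1). This gave no sign of pairing by number, but it cannot exclude a pairing that affects few genes.

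The members' median log2 change lay between 0.29 (limma, 0.5 added) and 0.53 (without CF1), above 0 in every setting. The count of members was 75 at 1 FPKM and 85 at 0.5 FPKM in 6 libraries, and 7 had an expressed neighbour within 20 kb. Over all genes, limma on log2(FPKM + 0.1) called 2329 higher and 4282 lower, against 3976 and 4160 by edgeR. The edgeR fit without the 3 control libraries with liver transcripts called 1920 higher and 2439 lower over all genes. Without the libraries with liver transcripts, 7 of the 28 expressed neighbours were called in place of 16, and Serpina3k, Mup3 and Ahsg, liver genes at or near 0 elsewhere, went to log2 changes of 0.00, 0.98 and 0.98 (adjusted p = 1). Of the 2391 refits of single named genes, 150 lost and 23 gained a call. In 3 more, of those 3 liver genes, the change did not keep its sign, with Mup3 and Ahsg above 0 and Serpina3k at 0.00. Sign changes of values called in neither fit are not counted. Low counts limit the genes below 1 FPKM.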
